A study of Mus musculus with 6 samples.

Results

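The integrated stress response and amino acid starvation genes were 33 genes chosen by name, from their known roles: the kinases and phosphatase subunits that act on eIF2alpha, the transcription factors of the ATF4 pathway, their known target genes and 3 further genes of the unfolded protein response. All 33 were found as 1 row each among the 53084 rows of the count table. RNA was sequenced from the muscle of 3 Tarsl2+/+ mice (583, 584 and 595) and 3 Tarsl2-/- mice (588, 589 and 591), 1 library per mouse. Mouse 589 is labelled KOT1-589, whereas the other Tarsl2-/- mice are labelled KO1-588 and KO1-591. What the different label stands for is not given in the sources used here. All 6 were male C57BL/6 mice of 6 weeks, kept under specific pathogen-free conditions on standard chow, and no other allele or treatment was given for either group. The Tarsl2-/- allele was made with Cas9 and guides in the introns on both sides of exon 3, so that exon 3 was lost from the germline and from every cell type, not from muscle alone. The muscle taken, and whether the sequenced mice were littermates, are not given in the sources used here. The question addressed was whether muscle without Tarsl2, a gene that encodes a threonyl-tRNA synthetase-like protein, carried the transcript pattern that follows a shortage of charged tRNA. The study itself measured threonine tRNAs in muscle of mice of this age. It reported unchanged amounts and little difference in charging between the genotypes.

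When a cell runs short of an amino acid, uncharged tRNA activates the kinase GCN2 (Eif2ak4), which phosphorylates the translation factor eIF2 on its alpha subunit. General initiation then slows, while the mRNA of the transcription factor ATF4 is translated more, and ATF4 switches on genes for amino acid synthesis, amino acid uptake and feedback. The kinases PERK (Eif2ak3), PKR (Eif2ak2) and HRI (Eif2ak1) feed the same step from endoplasmic reticulum stress, double-stranded RNA and heme shortage or mitochondrial stress. In muscle with failing mitochondria the pathway is known for the secreted hormones FGF21 and GDF15. ATF4 itself is governed mainly by translation, which transcript counts do not measure.

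The libraries held between 16176591 and 20123767 counts. Tarsl2 had 456 to 605 counts in the Tarsl2+/+ libraries and 30 to 40 in the Tarsl2-/- libraries (log2 fold change −3.81, adjusted p = 6.45e-07 by edgeR's quasi-likelihood test), so the labels and the targeted gene matched. In CPM (counts per 1e6 TMM-scaled library counts), 9 skeletal muscle fibre markers summed to between 122866 and 143457. Of the 9, 3 (Ckm, Myh1 and Actn3) passed the test between genotypes, all higher in Tarsl2-/- muscle. The sums overlapped, with 133042 CPM in mouse 583 above 128910 CPM in 589 and 128219 CPM in 591. Of the rest, Pvalb was lower without overlap (log2 fold change −0.23) and Myh4 was at −0.035, and the median of the 9 was 0.16. The 10 slow-fibre markers had a median log2 fold change of 0.41, and 0 passed the test. The sample labels also mention a dissection of the retina, but no retinal marker checked exceeded 4 counts in a library, and Pde6b, Crx, Nrl and Arr3 were at 0 in all 6. Of 15075 genes tested, 342 had an adjusted p under 0.05 with edgeR's quasi-likelihood test, which is 2.27% (0.896% higher and 1.37% lower in Tarsl2-/- muscle). Macrophage markers were lower in the Tarsl2-/- libraries: 5 of 8 passed the test, and their summed level was 748 to 818 CPM in Tarsl2+/+ and 474 to 594 CPM in Tarsl2-/- muscle. Of 6 endothelial markers 1 passed the test, Cdh5, and was lower. The 6 erythrocyte markers summed to 4748 to 10392 CPM against 4166 to 4536 CPM and the 6 fibroblast markers to 9544 to 11047 CPM against 7996 to 9405 CPM, and none of these 12 passed the test. In bulk tissue, fewer cells of a type and less RNA per cell cannot be told apart.

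No gene of the 33 passed the test between the genotypes. Of the 33, 31 had enough counts to be tested and 0 of the 31 had an adjusted p under 0.05 with edgeR's quasi-likelihood test, against 2.27% of all tested genes. The smallest adjusted p, that of Eif4ebp1, was 0.0866. DESeq2 called 1 gene, Eif4ebp1, among 671 called in all, and limma-voom called 0. With no filter on low counts edgeR called 7 of the 33 (Cebpb, Eif4ebp1, Chac1, Asns, Phgdh and Cth higher, Nupr1 lower), among 1437 called in all. That fit drew the spread of single genes fully to the trend, so none of the 7 was judged by its own spread. That spread was wide for Chac1, Asns, Phgdh and Nupr1. Without mouse 584 edgeR called 2 (Cth higher, Nupr1 lower), among 625 called in all. At an unadjusted p under 0.05 there were 9 genes, 6 higher and 3 lower in Tarsl2-/- muscle, or 29.0% of the 31 against 19.8% of all tested genes (9.57% higher and 10.2% lower). The libraries of the genotypes did not overlap for 11 of the 31, or 35.5%, against 24.6% of all tested genes. Of the 11, 8 were higher in Tarsl2-/- muscle, as were 12.6% of all tested genes, and 3 were lower, as were 12% of all tested genes. The direction was mixed: the log2 fold change of Tarsl2-/- over Tarsl2+/+ was positive for 20 and negative for 11, between −0.45 and 0.92, with a median of 0.15 beside 0.0025 over all tested genes. Without Tarsl2-/- mouse 589 the median of the 31 was 0.0089, and without any other single mouse it lay between 0.11 and 0.18.

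How large a change these 6 libraries could have hidden is given by the intervals. For 26 of the 31 genes the 95% interval of the log2 fold change lay inside a 2-fold change in either direction. The same held for 12607 of all 15075 tested genes, a like share. It reached or passed 2-fold for Cth, Asns, Phgdh and Chac1 upward and for Trib3 downward. The log2 fold change was under 0.2 in size for 14 of the 31, and its median size was 0.22 beside 0.17 over all tested genes. A missing call is not evidence that the genotypes were alike for any of the 31, and least so for the 5 genes with wide intervals. An interval inside 2-fold bounds only the size of a change. Of the 31 intervals 9 excluded 0, those of the genes with an unadjusted p under 0.05 counted above.

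**Figure D1:**
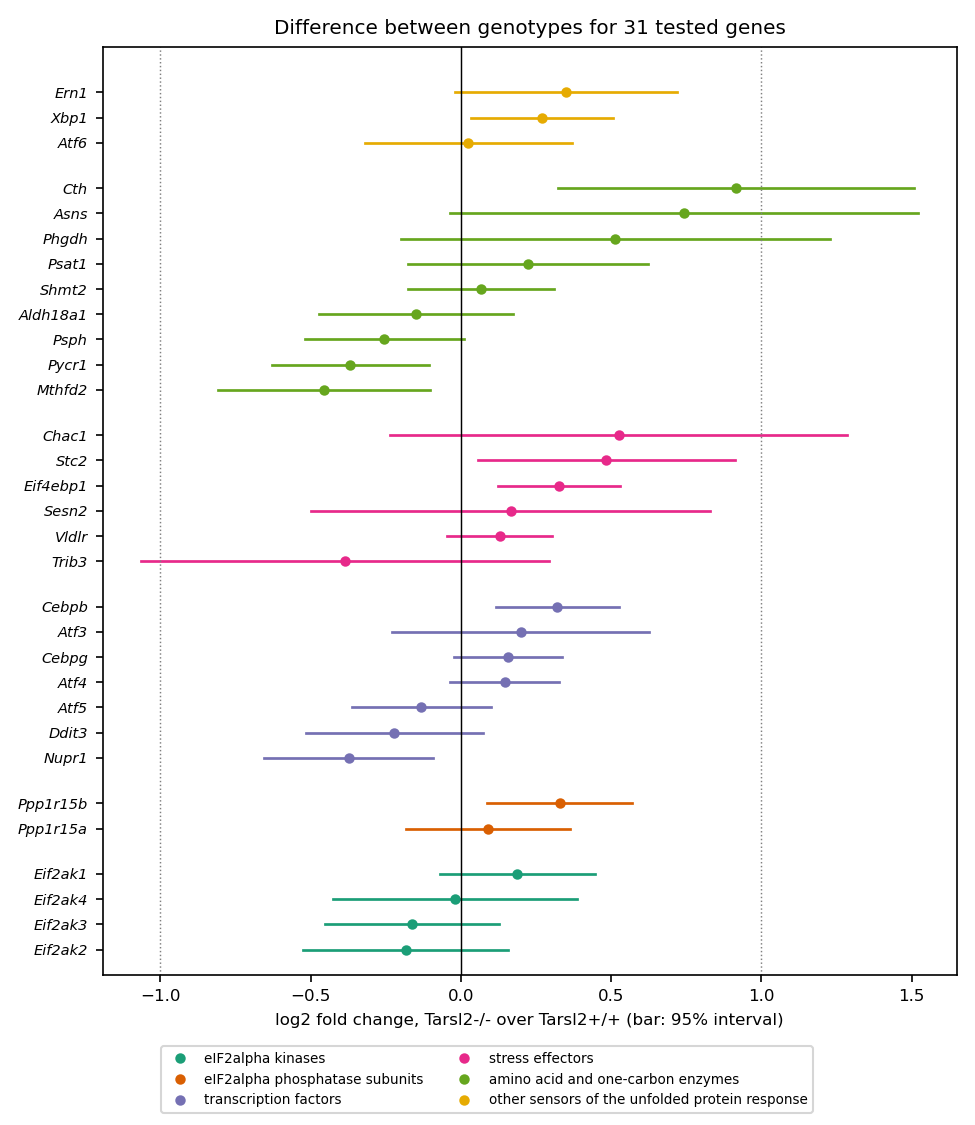
Log2 fold change of Tarsl2-/- over Tarsl2+/+ muscle (x axis) for the 31 tested genes, ordered by role, with 95% intervals as bars and dotted lines at a 2-fold change. The values run from −0.45 for Mthfd2 to 0.92 for Cth, and both directions occur within the enzymes and within the transcription factors. Of the 31 intervals 26 stay between the dotted lines, a share like that of all tested genes (12607 of 15075).

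Among the genes, transcript levels differed far more than between genotypes. Per kilobase of the gene length given in the table, Atf4 was the most abundant at 104 ± 0.272 CPM per kb in Tarsl2+/+ muscle (SD, n = 3), followed by Atf5 at 69.0 ± 9.58 and by Eif4ebp1, whose protein holds back cap-dependent translation, at 50.7 ± 3.15 CPM per kb. Eif4ebp1 and Cebpb, at 45.3 ± 4.77 CPM per kb, differed by less than the sum of their standard deviations. The 4 kinases were at 0.708 CPM per kb (Eif2ak4) to 3.26 CPM per kb (Eif2ak1), and Gdf15 and Fgf21 were at the bottom of the order with 0.237 and 0.0184 CPM per kb. The length given for Atf4 in the table, 1724 bases, is shorter than the 2358 exon bases of the GENCODE vM21 gene, so its level per kilobase depends on the annotation.

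ATF4 pairs with C/EBP proteins on a short element in the promoters of its target genes, and the promoters are shown here because the target genes are the ones through which a response would be read. The element TGATGNAA was searched on both strands from 250 bases before to 50 bases after each transcription start in RefSeq promoter windows of GRCm38.p6. Windows were held for 29 of the 33 genes, all but Eif4ebp1, Cth, Atf6 and Ppp1r15b. The element was present for 8 of the 29, or 27.6%, against 4.51% of the 27025 genes with a window. Known ATF4 targets were put on the list by name, so the higher share describes that choice and is not a result of these data. Each of the 8 is printed with 10 bases on either side, 5′ to 3′ on the strand that reads TGATGNAA, with the element in capitals.
Asns: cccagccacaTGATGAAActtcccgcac
Chac1: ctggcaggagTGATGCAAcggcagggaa
Trib3: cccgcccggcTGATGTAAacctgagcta
Nupr1: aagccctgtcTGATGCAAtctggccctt
Pycr1: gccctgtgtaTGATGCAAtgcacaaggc
Atf3: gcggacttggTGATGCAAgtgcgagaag
Fgf21: cctggacggaTGATGCAAtgggggggtc
Vldlr: ctaggagcgcTGATGCAActattgctgc

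Of these 8, 6 carry TGATGCAA, Asns carries TGATGAAA and Trib3 carries TGATGTAA. In Asns (chr6:7693225-7693232) and Pycr1 (chr11:120643844-120643851) the element lies on the sense strand, 23 and 103 bases before the start. On the antisense strand it lies 193 bases before the start of Chac1 (chr2:119351049-119351056), 110 before that of Nupr1 (chr7:126625573-126625580) and of Atf3 (chr1:191183436-191183443). It is also antisense 139 before the start of Fgf21 (chr7:45615622-45615629) and 15 after that of Trib3 (chr2:152344039-152344046). For Vldlr it lies antisense 200 before the downstream start (chr19:27216820-27216827), and the window of the upstream start (chr19:27216234-27216533) lacked it. In GENCODE vM21 the sites of Chac1, Trib3, Fgf21 and Pycr1 lie outside the gene, that of Atf3 in an intron and those of Asns, Nupr1 and Vldlr in an exon of a longer transcript. The endoplasmic reticulum stress element, CCAAT and CCACG with 9 bases of any kind between them, searched in the same way, was in 0 of the 29 and in 0.137% of all genes with a window. The upstream stretch is given for Chac1, the gene with the widest spread between mice, and for Pycr1, whose genotypes did not overlap, up to the first annotated exon base, on the sense strand and with the element in capitals (chr2:119350992-119351228 on the plus strand and chr11:120643770-120643998 on the minus strand, GRCm38.p6).
Chac1: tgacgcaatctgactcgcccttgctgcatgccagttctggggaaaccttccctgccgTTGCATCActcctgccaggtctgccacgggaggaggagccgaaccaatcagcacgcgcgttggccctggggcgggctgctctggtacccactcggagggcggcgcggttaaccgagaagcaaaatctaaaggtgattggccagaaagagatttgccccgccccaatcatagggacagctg
Pycr1: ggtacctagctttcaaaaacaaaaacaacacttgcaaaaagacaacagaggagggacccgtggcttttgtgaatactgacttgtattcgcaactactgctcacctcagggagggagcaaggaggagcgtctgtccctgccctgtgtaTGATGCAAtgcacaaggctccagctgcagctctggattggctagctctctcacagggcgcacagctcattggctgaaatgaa

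Both directions occurred with and without the element. Of the 7 tested genes with it, 4 had a positive and 3 a negative log2 fold change, with a median of 0.13 and a range from −0.38 (Trib3) to 0.74 (Asns). Of the 20 tested genes whose window lacked it, 12 were positive and 8 negative, with a median of 0.12. These counts describe letters in a window and not binding.

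The 4 kinases that start the pathway differed little between the genotypes, and 0 of 4 had an unadjusted p under 0.05. Eif2ak4, the sensor of uncharged tRNA, was at 6.02, 4.09 and 5.72 CPM in Tarsl2+/+ mice 583, 584 and 595 and at 5.85, 4.99 and 4.76 CPM in Tarsl2-/- mice 588, 589 and 591. The lowest and the highest of the 6 values were both from Tarsl2+/+ mice, and the log2 fold change was −0.020 ± 0.19 (SE, adjusted p = 0.972 with edgeR's quasi-likelihood test). Its 95% interval ran from −0.43 to 0.39. Eif2ak1, the heme-regulated kinase, was at 16.4, 21.7 and 17.3 CPM in the same Tarsl2+/+ order and at 20.5, 20.8 and 21.8 CPM in the Tarsl2-/- order. Only mouse 584 of the Tarsl2+/+ group reached the Tarsl2-/- values (log2 fold change 0.19, adjusted p = 0.407). Aimp2 on the opposite strand overlaps 8.59% of its exon bases, a gene with 10406 counts over the 6 libraries against 2168 for Eif2ak1, and the strand setting of the counting is not given in the sources used here.

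Eif2ak2, the interferon-inducible kinase that binds double-stranded RNA, was at 11.2, 9.56 and 11.1 CPM in Tarsl2+/+ and at 8.36, 7.98 and 11.5 CPM in Tarsl2-/- muscle. Mouse 591 was the highest of all 6, so the groups overlapped (log2 fold change −0.18, adjusted p = 0.556). Eif2ak3, the kinase of the endoplasmic reticulum, was at 9.12, 7.86 and 9.45 CPM against 8.36, 7.92 and 7.34 CPM. The groups overlapped through mouse 584 (log2 fold change −0.16, adjusted p = 0.536).

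The phosphatase subunits bring protein phosphatase 1 to eIF2alpha and so end the response. Ppp1r15b, the constitutive subunit (chr1:133131143-133139783), was at 27.5, 30.4 and 24.7 CPM in Tarsl2+/+ and at 31.2, 38.5 and 34.1 CPM in Tarsl2-/- muscle. All 3 Tarsl2-/- values lay above the Tarsl2+/+ values, the nearest by less than 1 CPM. The log2 fold change was 0.33 ± 0.11 (SE) and missed the threshold (adjusted p = 0.131 with edgeR's quasi-likelihood test). Ppp1r15a, the stress-induced subunit also called GADD34 and itself an ATF4 pathway target, ranged from 13.2 to 15.9 CPM in Tarsl2+/+ and from 14.0 to 18.1 CPM in Tarsl2-/- muscle (log2 fold change 0.090, adjusted p = 0.739).

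The transcription factors split in direction, with 4 of 7 above and 3 of 7 below 0. Atf4, the central factor (chr15:80255184-80257540), was at 179, 178 and 179 CPM in Tarsl2+/+ mice 583, 584 and 595 and at 209, 194 and 191 CPM in Tarsl2-/- mice 588, 589 and 591. The Tarsl2+/+ values were within 1 CPM of each other and the Tarsl2-/- values all lay above them. Their log2 difference was 0.15 ± 0.082 (SE), with a 95% interval from −0.035 to 0.33, and the adjusted p by edgeR's quasi-likelihood test was 0.359. An exact two-sided permutation test over the 6 mice gave p = 0.1, the smallest that 3 mice against 3 allow. Atf4 was among the steadiest genes of its level, with a biological coefficient of variation of 3.00% between mice of a genotype, lower than that of all but 6.8% of the 500 genes nearest to it in level.

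Cebpb, which encodes a partner that dimerises with ATF4 and also acts in inflammation and fat cell differentiation (chr2:167688915-167690418), was at 75.6, 67.6 and 61.3 CPM in Tarsl2+/+ and at 86.8, 86.0 and 82.8 CPM in Tarsl2-/- muscle. Each Tarsl2-/- mouse was above each Tarsl2+/+ mouse. That is a log2 fold change of 0.32 ± 0.093 (SE), which had an adjusted p of 0.0918 by edgeR's quasi-likelihood test. With no filter on low counts, where the spread of single genes was drawn fully to the trend, the adjusted p was 0.0442. Tmem189 on the opposite strand shares 20.7% of the exon bases of Cebpb and had 20.6% of its counts. Cebpg, another dimer partner of ATF4, ranged from 56.3 to 61.2 CPM and from 62.5 to 68.7 CPM, without overlap, at a log2 fold change of 0.16 (adjusted p = 0.323).

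Nupr1, a small stress-induced chromatin protein (chr7:126623249-126630861), was at 81.3, 72.7 and 108 CPM in Tarsl2+/+ and at 69.0, 65.4 and 67.7 CPM in Tarsl2-/- muscle. All Tarsl2-/- values were below the Tarsl2+/+ values, which were spread by the high value of mouse 595. Between the genotypes the log2 fold change was −0.37 ± 0.13 (SE, adjusted p = 0.141 with edgeR's quasi-likelihood test). Without mouse 595 it was −0.19, and without mouse 584 it was −0.49 with an adjusted p of 0.047. Over the alternatives the adjusted p ran from 0.0100 with no filter on low counts to 0.377 without mouse 595. The fit with no filter drew the spread of single genes fully to the trend. Ddit3, which encodes CHOP, the factor tied to cell death under lasting stress (chr10:127290774-127296288), was at 23.6, 24.8 and 33.5 CPM in Tarsl2+/+ and at 24.2, 21.3 and 24.7 CPM in Tarsl2-/- muscle. Mouse 595 was again the highest, the other 5 mice lay within 4 CPM of each other, and the groups overlapped (log2 fold change −0.22 ± 0.13, SE, adjusted p = 0.393). Mars on the opposite strand shares 3.97% of the exon bases of Ddit3. Atf3, an early stress factor, had a log2 fold change of 0.20 that turned to −0.063 without mouse 588, and Atf5, a factor of mitochondrial stress, one of −0.13, and the adjusted p values were 0.619 and 0.532.

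**Figure D2:**
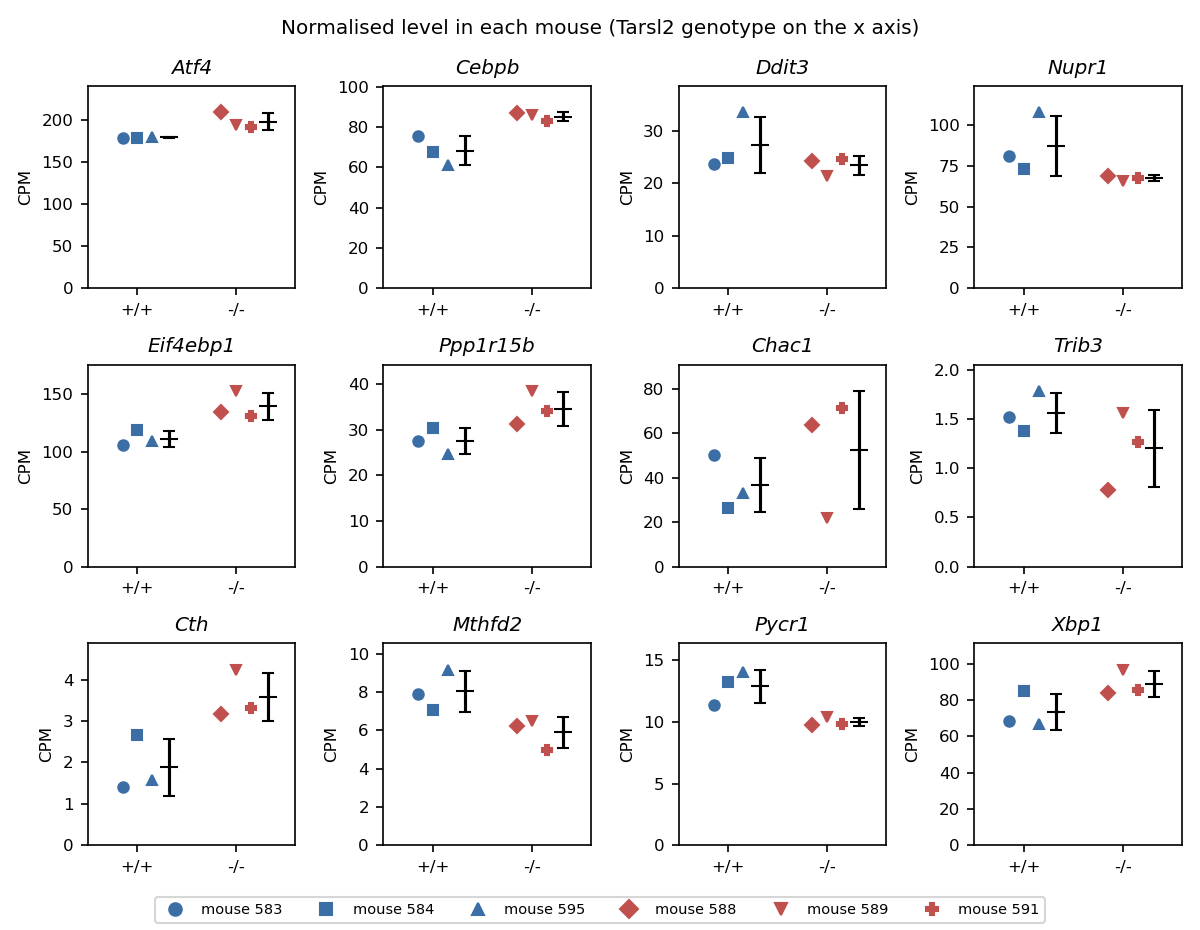
Level in CPM (y axis, from 0, TMM-scaled) of 12 genes in each mouse, with the genotype on the x axis and the mean ± SD of 3 mice drawn in black. The genotypes do not overlap for Atf4, Cebpb, Nupr1, Eif4ebp1, Ppp1r15b, Cth, Mthfd2 and Pycr1, whereas they overlap for Ddit3, Chac1, Trib3 and Xbp1.

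The stress effectors include both readouts and brakes of the pathway. Eif4ebp1 had the smallest p of the 31 (chr8:27260329-27276674). It was at 106, 119 and 109 CPM in Tarsl2+/+ and at 135, 153 and 131 CPM in Tarsl2-/- muscle. All Tarsl2-/- values lay above the Tarsl2+/+ values, the log2 fold change was 0.33 ± 0.093 (SE) and the adjusted p was 0.0866 by edgeR's quasi-likelihood test. The higher values of Eif4ebp1, Cebpb, Ppp1r15b and Atf4 stood in the same libraries as the higher values of Ckm, Myh1 and Actn3. Those were 3 of 9 skeletal muscle fibre markers, and Pvalb, another of the 9, was lower there. The part of fibre content in the higher values was not tested. DESeq2 gave the same size, 0.33, for Eif4ebp1, with an adjusted p of 0.0337. Over the alternatives run the direction stayed positive and the adjusted p ran from that value to 0.277 without mouse 583.

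Trib3, a pseudokinase that restrains ATF4 and insulin signalling, was low, with 26, 26 and 34 counts in Tarsl2+/+ and 14, 25 and 26 counts in Tarsl2-/- libraries. Only mouse 588 lay apart, at the low end (log2 fold change −0.38 ± 0.31, SE, adjusted p = 0.534 with edgeR's quasi-likelihood test). At these counts a change of 2-fold downward could not be told from none, since the 95% interval ran from −1.06 to 0.29. Chac1, which degrades glutathione (chr2:119351229-119354381), was at 50.2, 26.5 and 33.1 CPM in Tarsl2+/+ and at 63.9, 22.0 and 71.4 CPM in Tarsl2-/- muscle. Mice 588 and 591 were the highest of the 6 and mouse 589 the lowest. In the comparison of genotypes it had a log2 fold change of 0.53 ± 0.35 (SE) and an adjusted p of 0.435 with edgeR's quasi-likelihood test. Without mouse 589 these were 0.89 and 0.0771. Over the alternatives the adjusted p ran from 9.24e-05 with no filter on low counts to 0.81 without mouse 591. In the fit with no filter the spread of single genes was drawn fully to the trend.

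Stc2, a secreted glycoprotein induced by ATF4, ranged from 3.78 to 5.68 CPM in Tarsl2+/+ and from 5.52 to 7.58 CPM in Tarsl2-/- muscle, with a log2 fold change of 0.48 (adjusted p = 0.198 with edgeR's quasi-likelihood test). Vldlr, a lipoprotein receptor, ranged from 51.3 to 55.7 CPM and from 56.8 to 59.8 CPM without overlap, at a log2 fold change of 0.13 (adjusted p = 0.40). Sesn2, an inhibitor of mTORC1 that senses leucine, had a log2 fold change of 0.17, which turned to −0.093 without mouse 589.

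The secreted hormones had few counts. Fgf21 had 0, 0 and 1 counts in Tarsl2+/+ and 0, 0 and 2 counts in Tarsl2-/- libraries. All 6 values were under the floor of 3 counts, which corresponds to between 0.146 and 0.187 CPM, so no fold change is given. Gdf15 had 9, 6 and 9 counts in Tarsl2+/+ and 9, 10 and 11 counts in Tarsl2-/- libraries, or 0.439 ± 0.108 CPM against 0.553 ± 0.0631 CPM (SD, n = 3). The ranges overlapped through the values of 583 and 588, and the exact two-sided permutation test gave p = 0.2. Neither gene passed the filter on low counts.

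The amino acid and one-carbon enzymes split in direction. Of the 9, 5 were above and 4 below 0, and 3 had an unadjusted p under 0.05. Cth, cystathionine gamma-lyase, which makes cysteine (chr3:157894248-157925077), had the largest log2 fold change of the 31. It was at 1.40, 2.66 and 1.57 CPM in Tarsl2+/+ and at 3.18, 4.24 and 3.30 CPM in Tarsl2-/- muscle. The groups did not overlap, with 24 to 50 counts in Tarsl2+/+ and 57 to 68 counts in Tarsl2-/- libraries. The log2 fold change was 0.92 ± 0.27 (SE, 95% interval 0.32 to 1.51) and the adjusted p by edgeR's quasi-likelihood test was 0.0964. Without mouse 584, the Tarsl2+/+ mouse with the most Cth, it was 1.25 with an adjusted p of 0.0306. Over the alternatives the adjusted p ran from 0.00771 with no filter on low counts to 0.277 without mouse 583. The fit with no filter drew the spread of single genes fully to the trend.

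Pycr1, the last enzyme of mitochondrial proline synthesis (chr11:120635712-120643769), was at 11.4, 13.2 and 14.1 CPM in Tarsl2+/+ and at 9.76, 10.4 and 9.87 CPM in Tarsl2-/- muscle. The Tarsl2-/- mice lay within 1 CPM of each other and below all Tarsl2+/+ mice (log2 fold change −0.37 ± 0.12, SE, adjusted p = 0.122 with edgeR's quasi-likelihood test). Mthfd2, the mitochondrial folate enzyme that rises early in mitochondrial stress (chr6:83305691-83325908), was at 7.89, 7.07 and 9.19 CPM against 6.24, 6.49 and 4.96 CPM. The groups did not overlap, and the log2 fold change was −0.45 ± 0.16 (SE, adjusted p = 0.150). Aldh18a1, which supplies the substrate of Pycr1, was at a log2 fold change of −0.15 (adjusted p = 0.623) and Psph, the last step of serine synthesis, at −0.25 (adjusted p = 0.270). The exons of Psph overlap those of Cct6a on the opposite strand over 10.4% of their bases, and Cct6a had 13727 counts against 1386 for Psph. The lower values of Nupr1, Pycr1 and Mthfd2 stood in the same libraries as the lower macrophage markers given above, and the part of those cells in the result was not tested.

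For Asns, Phgdh and Psat1 the same mouse was the highest of each genotype, and the genotypes overlapped. Asns, asparagine synthetase and a standard readout of amino acid starvation (chr6:7675169-7693254), was at 4.03, 7.12 and 2.89 CPM in Tarsl2+/+ and at 6.58, 12.2 and 4.96 CPM in Tarsl2-/- muscle. Mouse 584 was the highest of its genotype and mouse 589 of the other, and the groups overlapped. Its log2 fold change was 0.74 ± 0.36 (SE, adjusted p = 0.276 with edgeR's quasi-likelihood test), 0.30 without mouse 589 and 1.19 without mouse 584. With no filter on low counts, where the spread of single genes was drawn fully to the trend, the adjusted p of Asns was 0.00139. Without mouse 589 it was 0.708.

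Phgdh and Psat1, the first enzymes of serine synthesis, were singled out after their values had been seen, because the highest mouse of each genotype was the same as for Asns. Phgdh was at 16.02, 25.3 and 14.3 CPM in Tarsl2+/+ and at 19.7, 44.2 and 16.3 CPM in Tarsl2-/- muscle, and its log2 fold change of 0.51 went to −0.045 without mouse 589. The adjusted p of Phgdh by edgeR's quasi-likelihood test was 0.415. It was 0.000889 with no filter on low counts, where the spread of single genes was drawn fully to the trend. Psat1 was at 22.4, 24.0 and 19.9 CPM against 19.9, 35.3 and 22.4 CPM, and its log2 fold change of 0.22 went to −0.058 without mouse 589. Mice 584 and 589 were thus the highest of their genotypes for all 3 enzymes. The 6 adipocyte markers had the same highest mice, with a summed level of 2192, 2812 and 1879 CPM in Tarsl2+/+ and of 2300, 4366 and 2640 CPM in Tarsl2-/- mice in the order given before. Each of the 6 markers was highest in 584 and 589 within its genotype, among them Adipoq at 195 and 313 CPM, and 5 of the 6 were highest overall in 589. Lep was highest in 584, at 23.5 CPM, and none of the 6 passed the test between genotypes. The part of fat cells in the enzyme values was not tested.

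**Figure D3:**
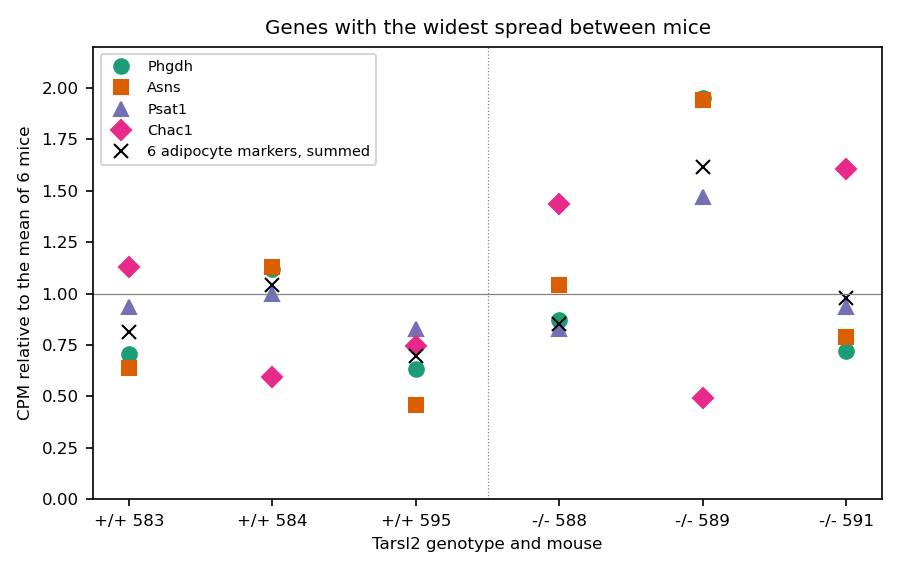
Level of Phgdh, Asns, Psat1 and Chac1 and the summed level of 6 adipocyte markers in each mouse, each divided by its mean over the 6 mice (y axis, from 0), with genotype and mouse on the x axis. Phgdh, Asns, Psat1 and the adipocyte markers are all highest in mouse 589, whereas Chac1 is lowest in that mouse.

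Spread between mice of a genotype set several of the genes apart. The biological coefficient of variation, the spread left after counting error, had a median of 10.6% over the 31 genes and of 8.46% over all tested genes. It was 47.1% for Chac1, 44.5% for Asns and 43.0% for Phgdh, each above at least 99% of the 500 genes nearest in level. Psat1, at 22.2%, Atf3, at 20.8%, and Nupr1, at 14.4%, were also above the 90th percentile of such genes, so that 6 of the 31 exceeded it. At the other end, Vldlr had 1.40% and Atf4 3.00%. Mouse 589, which was also the shallowest library, gave the highest of the 6 values for 10 of the 31 genes, against 19.9% of all tested genes. Tarsl2+/+ mouse 595 gave the lowest of the 6 values for 10 of the 31, against 21.7% of all tested genes. It gave the highest for 8, against 21.6%.

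**Figure D4:**
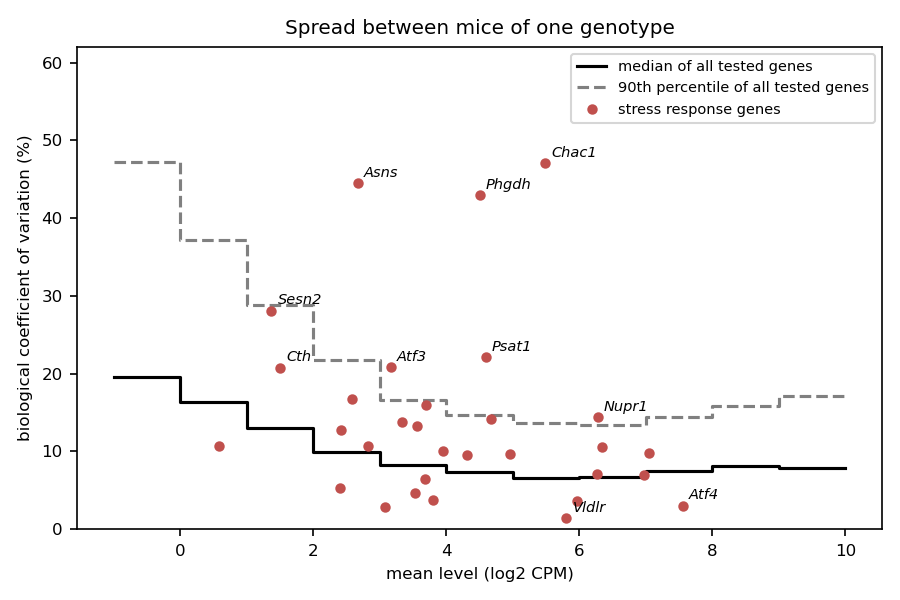
Biological coefficient of variation between mice of a genotype in percent (y axis) against mean level in log2 CPM (x axis) for the 31 genes (points), with the median and 90th percentile of all tested genes in steps of 1 log2 CPM. Chac1, Asns and Phgdh lie between 43.0% and 47.1%, far above the dashed line, and Atf4 and Vldlr lie below the solid line.

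The 3 further genes of the unfolded protein response all had log2 fold changes above 0. Xbp1, the mRNA that the sensor IRE1 splices (chr11:5520659-5525893), was at 68.6, 85.1 and 67.0 CPM in Tarsl2+/+ and at 83.9, 96.7 and 85.6 CPM in Tarsl2-/- muscle. Mouse 584 overlapped mouse 588, and the log2 fold change was 0.27 ± 0.11 (SE, adjusted p = 0.193 with edgeR's quasi-likelihood test). Gene counts do not separate spliced from unspliced Xbp1. Ern1, which encodes IRE1alpha, ranged from 3.98 to 4.89 CPM and from 5.07 to 6.55 CPM without overlap, at a log2 fold change of 0.35 (adjusted p = 0.277). Atf6, which encodes another sensor, was at 0.024 (adjusted p = 0.959).

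A wider set of 100 genes around the pathway, listed by known role, held no call either. Of the 100, 94 were tested and 0 had an adjusted p under 0.05 with edgeR's quasi-likelihood test, while 21 had an unadjusted p under 0.05, 12 higher and 9 lower, or 22.3% against 19.8% of all tested genes. DESeq2 called 4 of the 100, Eif2s3x, Pdia3, Hspa9 and Prodh, and limma-voom called 0. Their median log2 fold change was 0.030.

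Of 19 tested chaperone and degradation genes of the endoplasmic reticulum, 16 were below 0, beside 7472 of all 15075 tested genes, with a median log2 fold change of −0.14, and the 6 with an unadjusted p under 0.05 (Pdia3, Derl2, Manf, Hsp90b1, Pdia6 and Calr) were all lower in Tarsl2-/- muscle. That is 31.6% of the 19, against 10.2% of all tested genes that were lower at this threshold. The lower macrophage markers and the fibroblast sums given above stood in the same libraries, and the part of those cells in these values was not tested. Pdia3, an oxidoreductase that folds glycoproteins, was at 249.8, 230.3 and 259 CPM in Tarsl2+/+ and at 205, 174 and 203 CPM in Tarsl2-/- muscle. The groups did not overlap, with a log2 fold change of −0.34 and an adjusted p of 0.0846 by edgeR's quasi-likelihood test. For Hspa5, the chaperone BiP that controls the sensors IRE1, ATF6 and PERK, the log2 fold change was −0.12 at an adjusted p of 0.441. Of the 10 chaperones and proteases of mitochondria, 7 were above 0 with a median of 0.18. Hspa9, the mitochondrial Hsp70, was at 160, 197 and 149 CPM against 211, 265 and 230.1 CPM without overlap (log2 fold change 0.48, adjusted p = 0.0676).

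Of 29 tested further ATF4 targets, among them transporters and aminoacyl-tRNA synthetases, 18 were above and 11 below 0, with a median of 0.060. Mthfd1l, a mitochondrial folate enzyme, had the smallest p of them, at 2.46, 2.23 and 2.41 CPM in Tarsl2+/+ and 4.29, 2.81 and 4.28 CPM in Tarsl2-/- muscle (log2 fold change 0.69, adjusted p = 0.122 with edgeR's quasi-likelihood test). Of the 10 subunits of eIF2 and its exchange factor eIF2B, 8 were above 0 with a median of 0.097, and Eif2s3x, the gamma subunit, had the smallest p (35.9, 35.8 and 34.2 CPM against 39.9, 49.0 and 50.6 CPM, log2 fold change 0.40, adjusted p = 0.0676). Of the 9 partners of the kinases and phosphatases, Gcn1l1, the ribosome-bound activator of GCN2, had the smallest p (12.0, 10.04 and 10.1 CPM against 12.5, 14.8 and 11.9 CPM, overlapping, log2 fold change 0.29, adjusted p = 0.247). Of 17 tested enzymes of serine, glycine, methionine and proline, Prodh had the smallest p. Prodh, which starts proline breakdown, was at 4.44, 5.47 and 3.73 CPM in Tarsl2+/+ and at 7.02, 15.2 and 7.68 CPM in Tarsl2-/- muscle, without overlap and with the highest value again in mouse 589 (log2 fold change 1.12, adjusted p = 0.0625).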

How the data were processed

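Total RNA from mouse muscle was made into libraries with an Illumina TruSeq kit by the authors. The deposited table holds whole-number counts of reads per gene and a gene length in bases, with no normalization. The study's methods name a stranded kit, mm10 and HISAT2, whereas the submitters' processing notes name mm8 and Bowtie 0.12.2. The table's coordinates equal those of GENCODE vM21 (GRCm38) for 32 of the 33 genes. The counting tool and its strand setting are not given in the sources used here. Rows without a gene name held 0.12% of the counts.

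The genes, the lists and the tests were chosen with earlier results of these data known. Genes were kept by filterByExpr (minimum count 10, minimum total 15) and tested with edgeR 4.0.16 (TMM, glmQLFit and glmQLFTest, genotype only) in R 4.3.3, with Benjamini-Hochberg adjustment over all 15075 tested genes. Standard errors were the size of the log2 fold change over the square root of F. CPM values are TMM-scaled. Floors cover counting error only. The procedure was tested on simulated data. The replicates were separate mice. Values per mouse are given for the 8 genes with the smallest p, the classical readouts and the kinases, and for the gene with the smallest p in each related list. Dele1 was not found. Any other related gene was singled out with its values in view. Alternatives were DESeq2 1.42.0, limma-voom (limma 3.58.1), other scalings, other filters, a minimum 2-fold change and each library left out in turn.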

Additional observations from a re-analysis of the deposited data

How the results depend on the processing

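The direction and size of the Tarsl2 loss, and the count of 0 called genes among the 31, were the same under limma-voom, DESeq2 size factors, upper quartile scaling, at least 10 counts in every library and, for the 31, a minimum 2-fold change. With DESeq2, 671 genes were called in all, 1 of the 33 (Eif4ebp1) and 4 of the 100 related genes. With no filter on low counts, 1437 genes were called in all, 7 of the 33 (Cebpb, Eif4ebp1, Chac1, Asns, Phgdh and Cth higher, Nupr1 lower) and 7 of the 100 related genes. In that fit edgeR's spread of single genes was drawn fully to the trend, whereas with the filter the prior degrees of freedom were 7.23. Leaving out 1 mouse at a time gave 81 (without 583) to 625 (without 584) called genes in all, 0 to 2 among the 31 to 32 tested (2 without 584, Nupr1 and Cth) and 0 to 2 among the related genes (Hspa9 and Dnaja3 without 584, Eif2s3x without 588). The median log2 fold change of the tested genes then ran from 0.0089 to 0.18, and that of Tarsl2 from −3.91 to −3.69. The sign of 8 genes turned when 1 mouse was left out: Atf3 (−0.063 to 0.39), Atf6 (−0.12 to 0.21), Eif2ak4 (−0.17 to 0.078), Phgdh (−0.045 to 0.81), Ppp1r15a (−0.024 to 0.17), Psat1 (−0.058 to 0.38), Sesn2 (−0.093 to 0.42) and Shmt2 (−0.011 to 0.13). The causes were not tested. No paired analysis was possible because no number is shared by a mouse of either genotype. Depth limits Trib3, Fgf21 and Gdf15, which had at most 34 counts in a library.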
